A study of Mus musculus with 6 samples.

Results

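The UDP-glucuronosyltransferases are enzymes of the endoplasmic reticulum that join glucuronic acid to bilirubin, steroids, bile acids and drugs, and 10 of their genes were followed in mouse liver after crizotinib. The genes, chosen by name among the 26123 rows of the count table, were Ugt1a1, Ugt1a5, Ugt1a6a, Ugt1a9, Ugt2a3, Ugt2b1, Ugt2b5, Ugt2b34, Ugt2b36 and Ugt2b38, and all 10 passed the filter on low counts. Livers came from ICR mice, an outbred stock, in 2 groups of 3 labelled crizotinib and control. Crizotinib, a drug that blocks the kinases ALK, ROS1 and MET, was given at a stated 300 mg/kg, and normal saline is named beside it. Animals had 7 days to adapt, and liver was taken 1 week after dosing. As worded, the study's sentence on dosing assigns the drug to its normal group, so groups here follow the treatment label of each sample. Age, sex and genotype are not given in the labels.

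The UGT1A and UGT2 enzymes attach a water-soluble sugar acid to a fat-soluble substrate, so that the product can be pumped into bile or blood and excreted. UGT1A1 is the enzyme that conjugates bilirubin. The Ugt1a genes of mouse are built as a cluster in which each has its own promoter and first coding exon, spliced onto exons that all of them share, whereas Ugt2 genes are separate neighbouring copies. Receptors that sense drugs and fatty acids, among them CAR, PXR, AHR and PPAR-alpha, and the liver factor HNF4-alpha are known regulators of UGT genes.

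The design of the Ugt1a cluster bears on every Ugt1a value below, so the splice junctions of the 4 Ugt1a genes are shown first. Letters are coding sequence on the plus strand of chromosome 1 from GENCODE release M21 transcripts on GRCm38, 5′ to 3′. Lower case is the last 24 bases of each gene's own exon, and capitals are the first 16 bases of the shared exon at chr1:88215044-88215175.
Ugt1a9: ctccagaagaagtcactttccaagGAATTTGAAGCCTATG
Ugt1a6a: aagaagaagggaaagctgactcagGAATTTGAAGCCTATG
Ugt1a5: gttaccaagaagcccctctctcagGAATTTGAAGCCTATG
Ugt1a1: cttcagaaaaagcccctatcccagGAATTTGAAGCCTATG

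The shared part was identical in all 9 annotated Ugt1a genes of the table, with 735 coding bases after the junction. Between 50.3% and 59.9% of the exon bases of the 4 Ugt1a members also belong to other UGT genes. Their own coding parts were distinct, with 56.9% to 59.6% identity over the 6 pairs. Ugt1a2, outside the 10 genes, had no count in control replicates 1 and 3, where Ugt1a1 had 5907 and 19756 counts, so reads of the shared exons had not been counted for every gene. No source used here says how such reads were assigned, and Ugt1a values are therefore less certain than those of Ugt2. An antisense gene, Gm20528, also overlaps Ugt1a exons, and the use of strand in counting is not stated. The coding sequence of Ugt1a6a carries a further limit. It also lies within an annotated Ugt1a7c transcript, and its own coding part is 97.0% identical to that of Ugt1a6b.

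The Ugt2 members share no exon bases. Coding identity among the 6 of them ran from 66.4% to 97.0% over 15 pairs. The closest pair was Ugt2b5 and Ugt2b38, in which 433 of 1491 windows of 100 bases (29.0%) were identical. Any read lying wholly within such a stretch cannot be told apart by sequence. Ugt2b1 and Ugt2b36 had no such window in common with any UGT gene of the table, and Ugt2a3 and Ugt2b34 had 12 each.

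The libraries held 51123361 to 67947970 counts. Levels below are CPM, counts scaled to a common library total by the trimmed mean of M values, unless FPKM is named, and 3 values of a group are always in the order of replicates 1, 2 and 3. Fold changes are crizotinib over control with the standard error (SE) of edgeR's quasi-likelihood test, and a gene is called at a Benjamini-Hochberg adjusted p under 0.05 over 16492 genes. Mitochondrially encoded genes took 5.53% to 14.4% of counts in crizotinib livers and 7.47% to 44.5% in control livers, the 44.5% in control replicate 1. Of 8 hepatocyte markers all 8 were detected in every library and 0 were called, and their summed level was 36038 to 42669 CPM in crizotinib livers and 65475 to 84023 CPM in control livers. The markers did not share a direction, with 4 fitted log2 fold changes below 0 and 4 above. They ran from -1.48 for Alb, which made up most of the sum in control livers, to 3.31 for Tat. Alb took 1.43% to 2.81% of counts in crizotinib livers and 3.70% to 5.64% in control livers. Markers of Kupffer cells, the liver's macrophages, summed to 33.1 to 61.2 CPM in crizotinib livers and 321 to 427 CPM in control livers. Of these 8 markers 4 were called lower, where 0.34% of all genes were called in either direction. The part of these cell markers in the UGT values was not tested. Markers of gut and kidney, organs that also use UGT genes, were near 0 apart from Fabp2: Lct had a count in 1 crizotinib library alone and Slc34a1 in 1 control library alone. Fabp2 itself stood at 4.46, 18.8 and 23.3 CPM in crizotinib livers and at 50.9, 65.8 and 51.3 CPM in control livers, and its part in the results was not tested.

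Most Ugt2 transcripts were less abundant in crizotinib livers. For 5 of the 6 Ugt2 genes crizotinib replicate 3 was the nearest of the crizotinib livers to the controls, and Ugt2b38 was the exception. None of the 10 genes passed edgeR's test over all genes, where 0.34% of genes did. The median log2 fold change was -1.15 over the 10 genes, against 0.00 over all 16492. At an unadjusted p under 0.05, edgeR placed 4 of the 10 lower and 0 higher, against 7.25% and 8.06% of all genes. The 4 were Ugt2b1, Ugt2b5, Ugt2a3 and Ugt2b38. Less RNA per cell and fewer cells of a type cannot be told apart in whole liver.

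**Figure D1:**
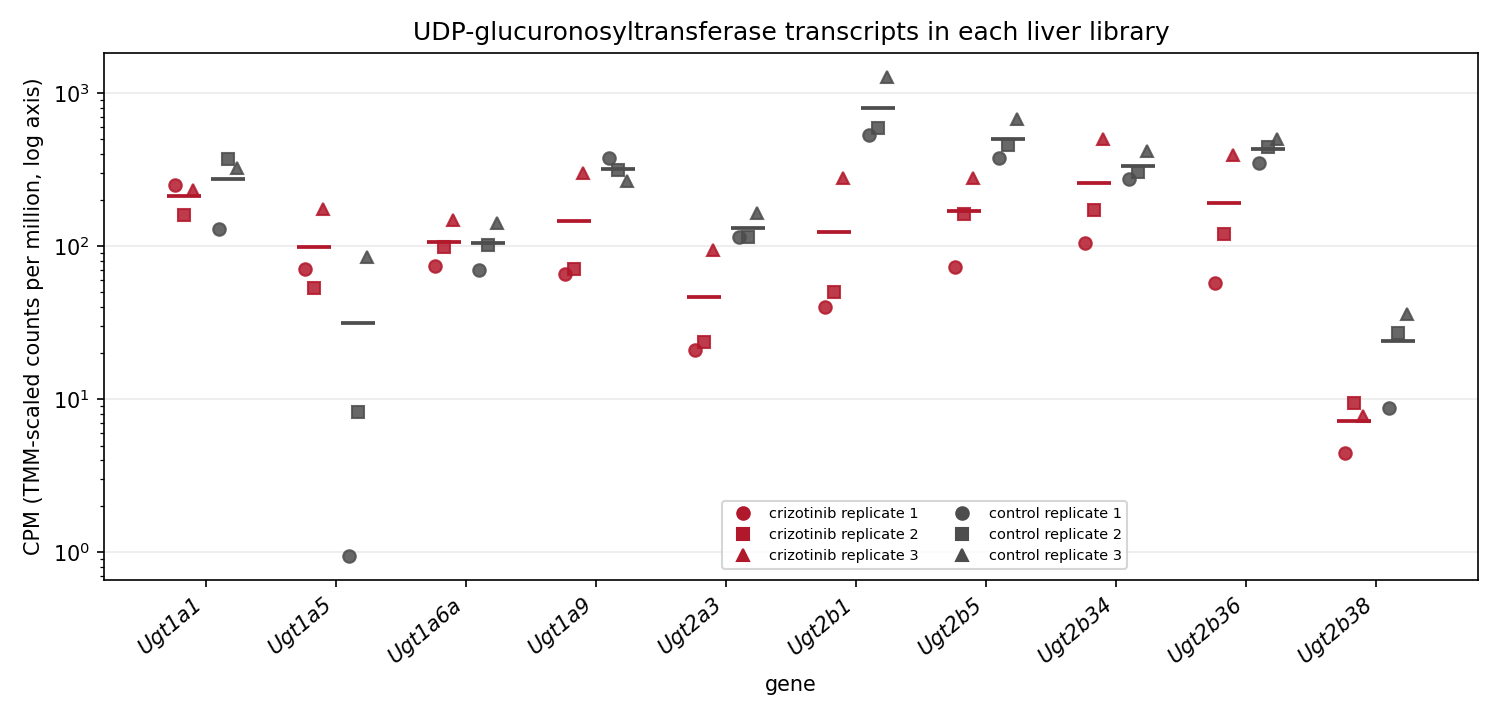
CPM on a log axis for the 10 UGT genes in each library, crizotinib in red at the left of each gene and control in grey at the right, with marker shape for the replicate and a bar for the mean of 3. For Ugt2b1, Ugt2a3 and Ugt2b5 the 3 crizotinib libraries lie below all 3 controls; crizotinib replicate 3 is the highest crizotinib library for 8 of the 10 genes.

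The position of each crizotinib library against the range of the 3 controls shows the same split. Crizotinib replicate 1 was below every control for 7 of the 10 genes and replicate 2 for 6, and neither was above every control for any. Crizotinib replicate 3 was below every control for 4 genes, within their range for 3 and above for 3 (Ugt1a5, Ugt1a6a and Ugt2b34). The share of all genes in each of these positions is not given here, so the counts describe the 10 genes alone. Taken over the 10 genes, the median distance from the mean of the controls was -2.11 in crizotinib replicate 1, -1.32 in replicate 2 and -0.11 in replicate 3, on the scale of log2(CPM + 1). A set of 6 acute-phase genes chosen with earlier results known (Saa1, Saa2, Orm1, Hp, Fgb and Lcn2) divided the libraries likewise. They took 12.1%, 12.9% and 1.89% of counts in crizotinib livers and between 0.509% and 1.98% in controls; their part in the UGT values was not tested.

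Ugt2b1 showed the widest difference of the 10. Its rat counterpart conjugates bisphenol A, among other substrates. Ugt2b1 (ENSMUSG00000035836, minus strand, chr5:86916638-86926530, GRCm38) had 40.2, 50.4 and 280.8 CPM in crizotinib livers, against 532, 596 and 1281 CPM in control livers. The groups did not overlap, although crizotinib replicate 3 was more than 5 times as high as the other two. The mean was 124 ± 136 CPM in crizotinib livers and 803 ± 415 CPM in control livers (SD, n = 3 each), a log2 fold change of -2.70 ± 0.83 (SE; adjusted p = 0.199 in edgeR). Without crizotinib replicate 3 the log2 fold change was -4.16 (adjusted p = 0.00968 in edgeR).

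Ugt2b5 and Ugt2a3 also separated the groups, with a smaller difference. Ugt2b5 (chr5:87124960-87140318, minus strand) had 73.4, 163 and 279 CPM in crizotinib livers, against 380.4, 457 and 683 CPM in control livers. Its log2 fold change was -1.56 ± 0.54 (SE; adjusted p = 0.232 in edgeR). Ugt2a3, whose human counterpart conjugates bile acids, lies at chr5:87324972-87337195 on the minus strand. It had 21.2, 23.6 and 95.4 CPM in crizotinib livers, against 114, 115 and 166 CPM in control livers. Its log2 fold change was -1.50 ± 0.60 (SE; adjusted p = 0.296 in edgeR). All 3 crizotinib libraries of both genes were below the lowest control, and for Ugt2a3 crizotinib replicate 3 came close to it.

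These 3 were the only genes of the 10 whose groups did not overlap, all of them lower in crizotinib livers, where 10.3% of all tested genes did so in that direction. In the deposited FPKM values, which carry the mitochondrial share of control replicate 1, only Ugt2b1 was free of overlap (5.77% of all tested genes lower). Crizotinib livers then had 14.6, 17.4 and 119.96 FPKM of Ugt2b1, against 124, 264 and 445 FPKM in control livers.

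Ugt2b38, the near copy of Ugt2b5, was the least abundant Ugt2 member. Ugt2b38 (chr5:87409942-87424203, minus strand) had 4.50, 9.46 and 7.80 CPM in crizotinib livers, against 8.84, 27.1 and 36.0 CPM in control livers. Control replicate 1 fell among the crizotinib values. The log2 fold change was -1.72 ± 0.52 (SE; adjusted p = 0.193 in edgeR), and here it barely moved without crizotinib replicate 3, at -1.79 (adjusted p = 0.116 in edgeR).

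Ugt2b36 and Ugt2b34 overlapped because crizotinib replicate 3 reached control levels. Ugt2b36 (chr5:87065927-87092555, minus strand) had 57.8, 121 and 397 CPM in crizotinib livers, against 349, 449 and 501 CPM in control livers, a log2 fold change of -1.17 ± 0.67 (SE; adjusted p = 0.443 in edgeR). Ugt2b34 (chr5:86889767-86906937, minus strand) had 106, 172 and 506 CPM in crizotinib livers, against 275, 308 and 418 CPM in control livers. Its highest value of all 6 was thus in a crizotinib liver, and its log2 fold change was -0.35 ± 0.59 (SE; adjusted p = 0.806 in edgeR).

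The 4 Ugt1a members did not share a direction. The summed level of the 4 was 462, 384 and 860.2 CPM in crizotinib livers and 581, 800.4 and 819 CPM in control livers. The 6 Ugt2 members summed to 303, 538 and 1566 CPM in crizotinib livers and 1659, 1952 and 3085 CPM in control livers. The Ugt2 sum therefore did not overlap between the groups in CPM and the Ugt1a sum did. In FPKM both sums overlapped, since the Ugt2 members summed to 112, 197 and 679.9 FPKM in crizotinib livers and 421, 953 and 1166 FPKM in control livers. Median log2 fold changes were -1.53 for the 6 Ugt2 genes and -0.16 for the 4 Ugt1a genes.

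Ugt1a1, the bilirubin enzyme, was within the control range in every crizotinib liver. Ugt1a1 (ENSMUSG00000089960, plus strand, chr1:88211959-88218997) had 250.4, 161 and 234 CPM in crizotinib livers, against 131, 372 and 325 CPM in control livers. The lowest and the highest of the 6 values were both controls. The log2 fold change was -0.36 ± 0.46 (SE; adjusted p = 0.739 in edgeR).

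Ugt1a6a, which in rodents responds to the aryl hydrocarbon receptor and conjugates planar phenols, had nearly equal means in both groups. It had 74.4, 98.5 and 148 CPM in crizotinib livers, against 70.1, 102 and 141 CPM in control livers. Its log2 fold change of 0.03 ± 0.39 (SE; adjusted p = 0.975 in edgeR) had the smallest size of the 10, and changed sign under 5 of the 14 other settings. Ugt1a6a lies at chr1:88134809-88218997 on the plus strand.

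Ugt1a9, whose human counterpart conjugates phenols such as propofol, was highest among crizotinib livers in replicate 3, as most Ugt2 genes were. Among controls Ugt1a9 fell from replicate 1 to replicate 3, where the Ugt2 genes rose. Ugt1a9 (chr1:88070800-88218997, plus strand) had 66.4, 71.2 and 303 CPM in crizotinib livers, against 379, 318 and 267 CPM in control livers. Crizotinib replicates 1 and 2 were below every control and replicate 3 was among them. The log2 fold change was -1.13 ± 0.62 (SE; adjusted p = 0.429 in edgeR) with all libraries and -2.24 without crizotinib replicate 3 (adjusted p = 0.0129 in edgeR).

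Ugt1a5 was the most variable gene of the 10, chiefly among controls. Ugt1a5 (chr1:88166012-88218997, plus strand) had 70.8, 53.4 and 175 CPM in crizotinib livers, against 0.952, 8.33 and 84.8 CPM in control livers. These stand for 43, 545 and 5150 counts in the controls. Control replicate 3 was above crizotinib replicates 1 and 2, so the groups overlapped, and the log2 fold change of 1.67 ± 1.26 (SE; adjusted p = 0.563 in edgeR) rested on the libraries used. Leaving out control replicate 3 gave 4.41 and leaving out crizotinib replicate 3 gave 0.97, neither of them called (adjusted p = 0.353 and 0.678 in edgeR).

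**Figure D2:**
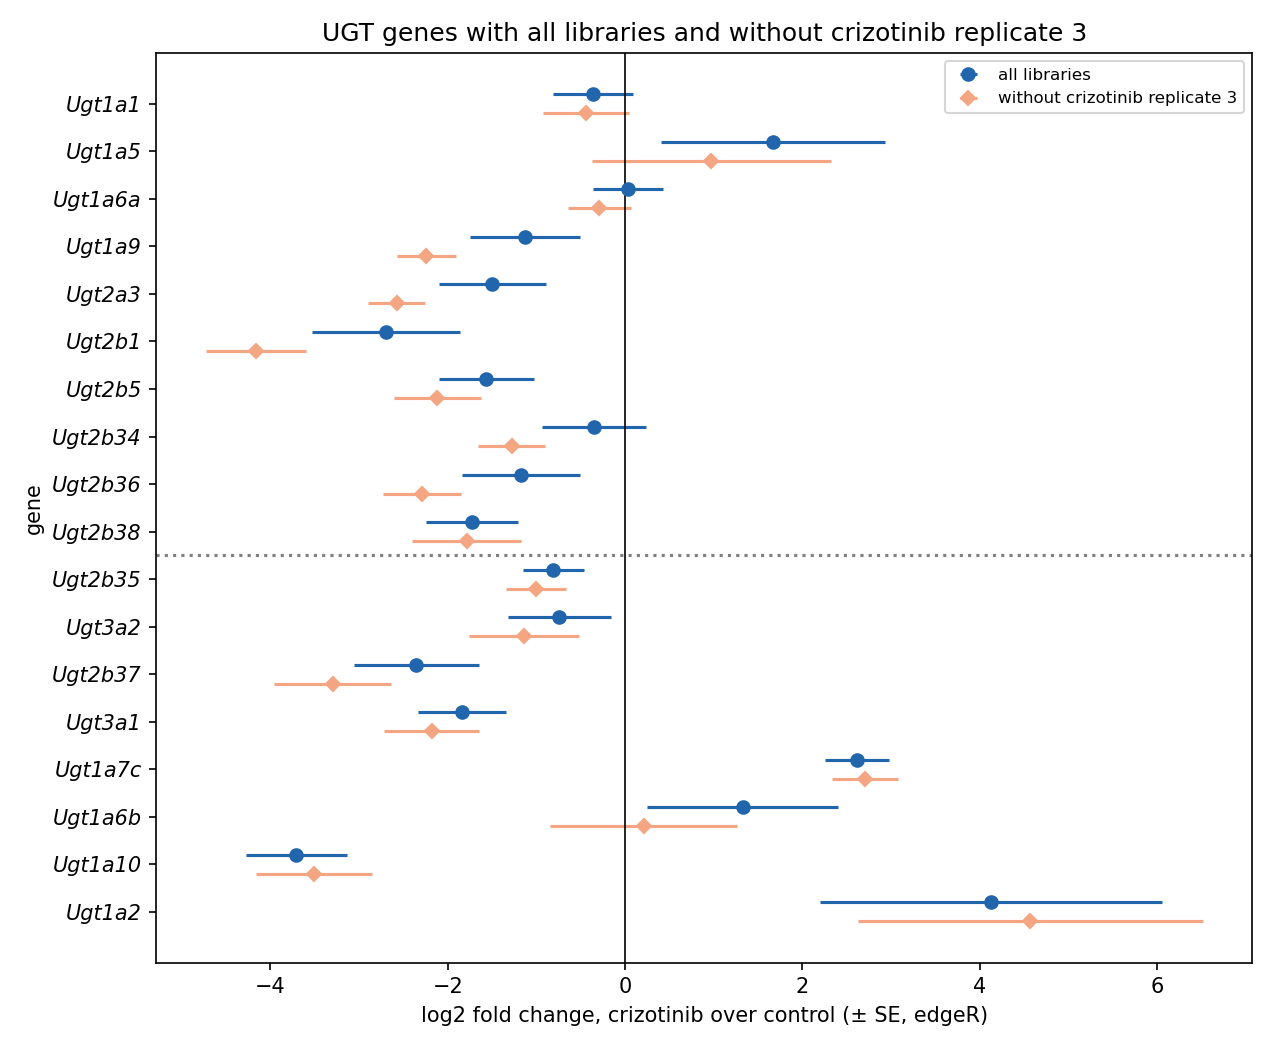
Log2 fold change of crizotinib over control with its standard error for the 10 genes (above the dotted line) and the 8 other tested UGT genes (below it). Blue circles use all libraries and orange diamonds leave out crizotinib replicate 3. The diamonds of Ugt1a9, Ugt2a3, Ugt2b1, Ugt2b34 and Ugt2b36 lie further to the left than the circles, while Ugt1a1, Ugt2b38, Ugt1a7c and Ugt1a10 hardly move.

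The choice of libraries and of test set how many of the 10 were called. Without crizotinib replicate 3, edgeR called 5 of them lower (Ugt1a9, Ugt2a3, Ugt2b1, Ugt2b5 and Ugt2b36), where 4.72% of all genes were called lower. Leaving out control replicate 1 as well gave 6 lower, with Ugt2b38 added, where 5.52% of all genes were called lower. Leaving out any one of the other 5 libraries alone gave 0, in fits that called 0.0176% of all genes or none. DESeq2 on all 6 libraries called 3 lower (Ugt2b1, Ugt2b5 and Ugt2b38), where it called 3.59% of genes lower, with adjusted p of 0.00477, 0.0353 and 0.0301. Limma voom with a weight per library called 6 lower, where it called 10.2% of genes lower.

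Within a library, FPKM allows levels of different genes to be compared per length. Between Ugt1a and Ugt2 genes this comparison is uncertain, because how reads of the shared exons were assigned is not stated. The length implied by count and FPKM was 1.10 to 1.11 times the annotated exon length in the 18 UGT genes with over 100 counts in some library, so 1 length scale served them all, shared exons included. In control livers the mean level was highest for Ugt2b1 (278 ± 161 FPKM), Ugt2b5 (244 ± 108) and Ugt2b36 (189 ± 77.6), followed by Ugt1a9 (126 ± 34.1) and Ugt1a1 (119 ± 78.4; SD, n = 3 each). Lower FPKM levels were those of Ugt2b34 (68.7 ± 26.6), Ugt2a3 (54.8 ± 19.9), Ugt1a6a (22.0 ± 10.7), Ugt1a5 (13.0 ± 18.7) and Ugt2b38 (12.04 ± 8.02). Only Ugt2a3 and Ugt1a6a, as neighbours in this order, lay apart by more than the sum of their SDs. In crizotinib livers the order began with Ugt2b36 (96.8 ± 100.6 FPKM), Ugt1a1 (95.1 ± 27.1) and Ugt2b5 (93.2 ± 65.4) and ended with Ugt2b38 (3.73 ± 1.32), and no neighbours lay that far apart.

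Ugt2b1 moved furthest in that order. By FPKM it ranked 8, 8 and 5 of the 10 in crizotinib livers, against 1, 2 and 1 in control livers. The same limit on Ugt1a values applies to these ranks. Ugt2b5 ranked 1 or 2 in all 6 libraries, and Ugt2b38 ranked 9 or 10. Among all 8 Ugt2 genes of the table, Ugt2b1 made up 11.5%, 8.04% and 16.9% of summed FPKM in crizotinib livers, against 28.2%, 26.5% and 36.8% in control livers. Ugt2b34, its neighbour in the cluster, made up 18.0%, 16.4% and 18.2% in crizotinib livers and 8.70%, 8.16% and 7.16% in control livers. Both shares were free of overlap, in opposite directions, and crizotinib replicate 3 was here close to the other crizotinib livers for Ugt2b34. Parts of a sum move against each other, so a larger share is not a higher level. Ugt2b34 itself overlapped between the groups in CPM, with a log2 fold change of -0.35 (adjusted p = 0.806 in edgeR). How often such shares are free of overlap among all genes is not given here. The FPKM of Ugt2b1 was 0.638, 0.492 and 0.929 times that of Ugt2b34 in crizotinib livers, against 3.25, 3.25 and 5.14 times in control livers. This ratio does not depend on how libraries are scaled; the pair was picked after the values were seen, so no test is given.

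**Figure D3:**
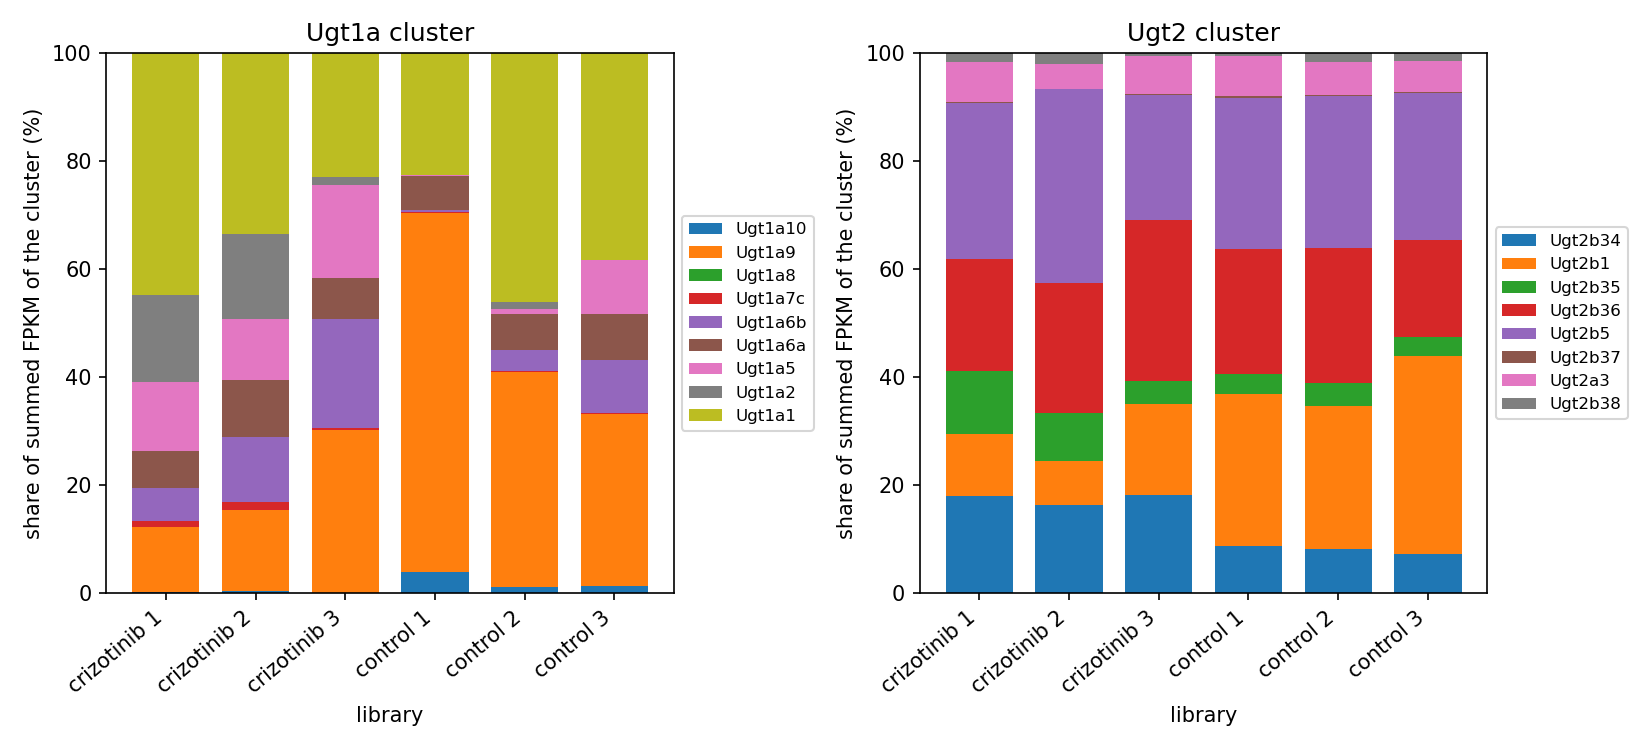
Share of each gene in the summed FPKM of the Ugt1a cluster (left) and the Ugt2 cluster (right), in percent, for each library with the 3 crizotinib livers at the left of each panel; genes are stacked in their order along the chromosome. Ugt1a9 fills 66.4% of the Ugt1a bar of control replicate 1 and 12.1% of that of crizotinib replicate 1, and Ugt2b1 takes a smaller share of every crizotinib bar than of any control bar.

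The make-up of the Ugt1a cluster differed more between libraries than that of Ugt2. Ugt1a9 held 12.1%, 15.1% and 30.1% of the summed FPKM of the 9 genes in crizotinib livers, against 66.4%, 39.9% and 31.9% in control livers. Ugt1a5 held 12.8%, 11.2% and 17.3% in crizotinib livers and 0.165%, 1.04% and 10.1% in control livers. Neither overlapped, but crizotinib replicate 3 and control replicate 3 were close for Ugt1a9, and crizotinib replicate 2 and control replicate 3 for Ugt1a5. In CPM both genes overlapped between the groups. Each share also moves with the other genes of the sum and depends on the unstated handling of reads in shared exons. How often such shares are free of overlap among all genes is not given here. Ugt1a1 held 44.9%, 33.5% and 22.9% in crizotinib livers and 22.6%, 46.1% and 38.2% in control livers, without a separation. The share of the 4 members together was 76.6%, 70.4% and 77.7% in crizotinib livers, against 95.4%, 93.6% and 88.7% in control livers; the rest came from Ugt1a2, Ugt1a6b, Ugt1a7c, Ugt1a8 and Ugt1a10.

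One of those other UGT genes passed edgeR's test on all libraries. Ugt1a7c (ENSMUSG00000090124, plus strand, chr1:88095062-88220002) rose to 11.4, 12.8 and 9.52 CPM in crizotinib livers, against 2.02, 2.35 and 1.12 CPM in control livers. The 3 crizotinib livers were alike and far above the controls, a log2 fold change of 2.62 ± 0.36 (SE; adjusted p = 0.0431 in edgeR). Of the 10 UGT genes outside the chosen set 8 were tested, and edgeR on all libraries called this one, where 0.091% of all genes were called higher. DESeq2 called 4 of the 8, 1 higher and 3 lower, where it called 6.69% of all genes. The call held without crizotinib replicate 3 (adjusted p = 0.0104 in edgeR). It was lost without crizotinib replicate 1 or 2 (adjusted p = 0.138 and 0.171 in edgeR) and without control replicate 1, 2 or 3 (adjusted p = 0.166, 0.0888 and 0.199 in edgeR). The log2 fold change itself stayed between 2.35 and 2.81 over the 6 fits that leave out 1 library, and the 5 in which the call was lost called 0 to 3 genes in all. Its count is uncertain, since 2304 of its 4219 exon bases belong to other UGT genes as well.

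Ugt1a10 and Ugt1a2 differed in opposite directions without being called by edgeR on all libraries. Ugt1a10, the first gene of the cluster, had 0.675, 1.90 and 0.761 CPM in crizotinib livers, against 23.5, 8.87 and 11.3 CPM in control livers (log2 fold change -3.71 ± 0.57 SE, adjusted p = 0.0517 in edgeR). Its own coding exon is 91.9% identical to that of Ugt1a9. Ugt1a2 had 4608, 4057 and 1005 counts in crizotinib livers, against 0, 671 and 0 counts in control livers (adjusted p = 0.358 in edgeR). Both genes were free of overlap between the groups in CPM, Ugt1a10 lower and Ugt1a2 higher. Of all tested genes 10.3% were lower without overlap, and the share higher without overlap is not given here. Ugt1a10 was called lower by DESeq2 (adjusted p = 1.83e-08), by edgeR without the filter on low counts (adjusted p = 0.0484), by limma on log2(FPKM + 1) (adjusted p = 0.0372) and by limma voom (adjusted p = 0.00590). Without crizotinib replicate 3 edgeR also called Ugt1a10 lower (adjusted p = 0.0241), and likewise with control replicate 1 left out as well (adjusted p = 0.0256). Ugt1a2 was called higher by limma voom (adjusted p = 0.0138) and by no other setting. Ugt1a2 and Ugt1a5 end their own exons in the same 24 bases, shown above for Ugt1a5.

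The other UGT genes with a mean of at least 1 FPKM in a group were Ugt2b35, Ugt2b37, Ugt3a1, Ugt3a2 and Ugt1a6b, none of them called by edgeR on all libraries. DESeq2 called Ugt2b37 and Ugt3a1 lower (adjusted p = 0.0171 and 0.0111), and limma voom with a weight per library called these and Ugt2b35 lower. Ugt3a1 had 4.92, 9.20 and 12.6 CPM in crizotinib livers and 14.5, 44.6 and 36.6 CPM in control livers (log2 fold change -1.84 ± 0.49 SE, adjusted p = 0.161 in edgeR). Ugt2b37 had a log2 fold change of -2.35 ± 0.70 and Ugt2b35 one of -0.81 ± 0.34 (SE; adjusted p = 0.190 and 0.318 in edgeR). Each was lower without overlap in CPM, as were 10.3% of all tested genes. In FPKM Ugt2b35 overlapped, with 14.9, 19.2 and 29.1 in crizotinib livers against 16.2, 42.8 and 42.4 in control livers. Ugt3a1 overlapped in FPKM too, with 1.72, 3.07 and 5.18 in crizotinib livers against 3.24, 19.0 and 12.2 in control livers. Ugt2b37 did not overlap in FPKM, where 5.77% of all tested genes were lower without overlap. Ugt3a2 and Ugt1a6b overlapped, at -0.74 ± 0.58 and 1.33 ± 1.08 on the log2 scale. Ugt1a6b ranged from 2.75 to 90.0 CPM in controls, a spread between animals like that of Ugt1a5. Ugt8a and Ugt1a8 did not pass the filter, with at most 12 and 14 counts in any library.

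The 10 genes fell into a tight set and a loose one when their log2(CPM + 1) was compared across the 6 libraries. The points share library scaling and the same group difference, so these values describe and test nothing. All 15 pairs of Ugt2 genes correlated positively, with a median Pearson r of 0.875 and a range of 0.569 to 0.988. The highest was between Ugt2a3 and Ugt2b1. The 6 pairs of Ugt1a genes had a median r of 0.342, from -0.421 (Ugt1a5 with Ugt1a9) to 0.658 (Ugt1a5 with Ugt1a6a). With the Ugt2 genes, Ugt1a9 had an r from 0.513 (Ugt2b38) to 0.953 (Ugt2a3). These were above its r with any Ugt1a gene, the highest of which was 0.318.

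Genes that supply or spend the sugar donor were not called by edgeR or DESeq2 on all libraries. Of 10 listed genes 0 were called by edgeR and 0 had an unadjusted p under 0.05. DESeq2 also called 0, but it gave no p for Rgn. The median log2 fold change was 0.08, with 5 genes above 0 and 5 below. Ugdh, which oxidises UDP-glucose to UDP-glucuronic acid, had 71.4, 56.0 and 204 CPM in crizotinib livers and 53.2, 106 and 92.2 CPM in control livers (log2 fold change 0.40 ± 0.53 SE, adjusted p = 0.756 in edgeR). Pgm2, a phosphoglucomutase, and Gusb, the lysosomal beta-glucuronidase that removes glucuronic acid, had the smallest p of the list, at log2 fold changes of 0.76 ± 0.36 and 0.68 ± 0.33 (SE; adjusted p = 0.365 and 0.369 in edgeR). Gulo, the last enzyme of vitamin C synthesis, for which glucuronic acid is the source in mice, had -1.19 ± 0.78, and Ugp2, which makes UDP-glucose, had -0.75 ± 0.49 (SE; adjusted p = 0.503 and 0.505 in edgeR). Without crizotinib replicate 3 edgeR called 3 of the 10 lower, Ugp2, Rgn and Gulo, where 4.72% of all genes were called lower.

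Carriers that move glucuronides across the hepatocyte membrane came closer to the threshold, 2 of them upward. Of 8 listed genes 0 were called by edgeR, and 2 were higher and 1 was lower at an unadjusted p under 0.05, against 8.06% and 7.25% of all genes. DESeq2 called 2 higher (Slco1a4 and Abcc4), where it called 3.1% of all genes higher. Slco1a4, an uptake carrier for organic anions, had 155, 84.9 and 179.9 CPM in crizotinib livers, against 23.8, 24.6 and 12.8 CPM in control livers. Its groups were far apart, with a log2 fold change of 2.78 ± 0.42 SE (adjusted p = 0.0502 in edgeR). It was called in edgeR with DESeq2 size factors or with mitochondrially encoded genes removed. Limma voom called it too (adjusted p = 0.00444), as did edgeR without crizotinib replicate 3 (adjusted p = 0.0149) and with control replicate 1 left out as well (adjusted p = 0.0250). With any other single library left out it was not called (adjusted p = 0.122 to 0.278 in edgeR). Abcc4, an efflux pump of the blood side, had 14.98, 4.10 and 6.66 CPM in crizotinib livers and 1.02, 1.50 and 1.12 CPM in control livers (log2 fold change 2.82 ± 0.52 SE, adjusted p = 0.0814 in edgeR).

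**Figure D4:**
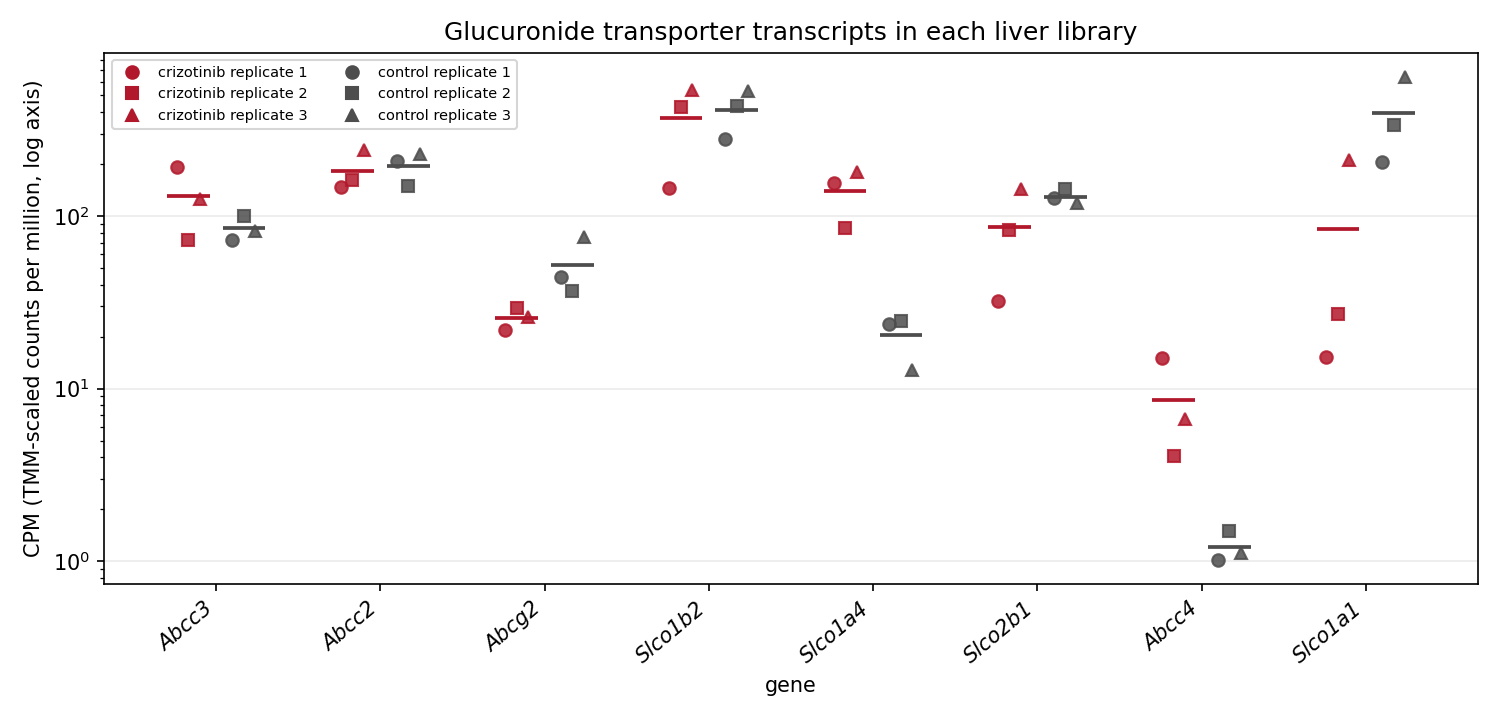
CPM on a log axis for 8 carriers of glucuronides in each library, drawn as in the plot of the UGT genes. Slco1a4 and Abcc4 lie higher in all 3 crizotinib livers and Abcg2 lies lower, without overlap in CPM. Of all tested genes 10.3% were lower without overlap, and the share higher without overlap is not given here. Abcc2, Abcc3, Slco1a1, Slco1b2 and Slco2b1 overlap.

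Abcg2, another efflux pump, had 21.9, 29.3 and 25.9 CPM in crizotinib livers and 44.3, 37.0 and 75.5 CPM in control livers (log2 fold change -1.02 ± 0.33 SE, adjusted p = 0.214 in edgeR). In FPKM its groups overlapped, since crizotinib replicate 3 had 3.48 FPKM and control replicate 1 had 3.24 FPKM. Slco1a1, an uptake carrier, had 15.2, 27.1 and 211 CPM in crizotinib livers and 205, 338 and 637 CPM in control livers, with the same split of crizotinib replicate 3 as in the Ugt2 genes (log2 fold change -2.22 ± 0.98 SE, adjusted p = 0.332 in edgeR). Abcc2, which exports bilirubin glucuronides into bile, had a log2 fold change of -0.10 ± 0.35 (SE; adjusted p = 0.913 in edgeR).

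Of 25 listed regulators and index targets 0 were called by edgeR, and 1 was higher and 2 lower at an unadjusted p under 0.05, against 8.06% and 7.25% of all genes. DESeq2 called 2 of the 25, against 6.69% of all genes, so these shares are near those of all genes. Cyp2b10, a target of CAR, had 113, 47.8 and 35.0 CPM in crizotinib livers, against 7.77, 4.34 and 9.62 CPM in control livers. All 3 crizotinib livers were above the controls (log2 fold change 3.17 ± 0.53 SE, adjusted p = 0.0630 in edgeR; DESeq2 called it higher). Ppara, the fatty acid receptor PPAR-alpha, had 7.43, 9.83 and 11.4 CPM in crizotinib livers and 19.4, 24.5 and 19.5 CPM in control livers (log2 fold change -1.14 ± 0.26 SE, adjusted p = 0.135 in edgeR; DESeq2 called it lower). Bcl6, a repressor in liver, and Hnf4a came next by p, at -1.15 ± 0.48 and 0.91 ± 0.44 on the log2 scale (SE; adjusted p = 0.315 and 0.369 in edgeR).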

How the data were processed

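Liver RNA of 6 mice was sequenced with a SMARTer kit, per the labels' protocols. The authors deposited, per the file headers, whole-number counts and FPKM for 26123 genes; no source used here names the aligner, the counter or the use of strand. FPKM equalled counts times 1 factor per gene and 1 per library within 0.0269 on the log2 scale (8285 genes over 200 counts in each library). Start and end of 89.6% of 26060 matched genes equalled GENCODE M21, so positions are on GRCm38.

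Genes were kept by filterByExpr (minimum count 10, total 15), leaving 16492. edgeR 4.0.16 (R 4.3.3) compared crizotinib with control by its quasi-likelihood test, two-sided, with TMM scaling, Benjamini-Hochberg adjustment and a threshold of 0.05. Alternatives were DESeq2 1.42.0, its size factors, no filter, a replicate block, limma 3.58.1 on log2(FPKM + 1), limma voom with weights, removal of mitochondrially encoded genes and libraries left out. The steps were tested on simulated data. Named genes were the 10 members, other UGT genes with a mean of at least 1 FPKM, and per list those called and up to 4 more with the smallest p; Ugdh and Abcc2 are named for their role. Members and lists were chosen with earlier results of these data known. The labels give 3 mice per group; p-values measure the spread between these samples. One regulator is not reported here.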

Additional observations from a re-analysis of the deposited data

How the results depend on the processing

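Settings are compared with edgeR on all 6 libraries, which called 56 genes in all, 0 of the 10 members, 1 other UGT gene and none of the supply, carrier and regulator lists. DESeq2 called 1103 genes, 3 members, 4 other UGT genes, 2 carriers and 2 regulators. Limma voom with a weight per library called 3217 genes, 6 members, 6 other UGT genes, 4 supply genes, 4 carriers and 6 regulators, with a median log2 fold change of the members of -1.91 against -1.15. With crizotinib replicate 3 and control replicate 1 both left out, 1718 genes, 6 members, 5 other UGT genes, 3 supply genes, 3 carriers and 5 regulators were called, and that median was -2.15. Over the 6 fits that leave out 1 library, counts ran from 0 to 1504 genes, 0 to 5 members, 0 to 3 other UGT genes, 0 to 3 supply genes, 0 to 3 carriers and 0 to 4 regulators, each highest without crizotinib replicate 3, and the median ran from -1.95 to -0.76. Without the filter 2 other UGT genes were called; limma on log2(FPKM + 1) called 2 other UGT genes and 1 regulator. With DESeq2 size factors, or with mitochondrially encoded genes removed, 1 carrier was called.

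Whether replicate numbers pair the libraries is not known. Deviations of same-numbered libraries correlated at -0.14, 0.25 and -0.08, and 2 of 6 libraries correlated best with their own number. These values cannot exclude a pairing. With the replicate block 0 genes were called, among them 0 other UGT genes and 0 members. At an unadjusted p under 0.05, edgeR with the block placed 5 members lower and 1 higher, against 4 and 0 without it. The share of all genes at that p with the block is not given here.

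The log2 fold change of Ugt1a6a, 0.03 with all libraries, was -0.36 in limma voom and -0.52 with both libraries left out, and ran from -0.29 to 0.31 over the fits leaving out 1 library. That of Ugt2b34 ran from -1.28 to 0.026, the upper end without crizotinib replicate 1, and that of Ugt1a6b was -0.36 with both libraries left out. Of 140 values of the members under other settings, 114 kept direction and side of the threshold, 20 passed it in the same direction and 6 changed sign. The cause of these shifts was not tested. With 3 libraries a group and most calls of members resting on whether crizotinib replicate 3 is used, the sizes of the differences are loosely fixed, and for Ugt1a genes the unstated handling of reads in shared exons adds to this.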
